A study of Mus musculus with 8 samples.

Results

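Parvalbumin interneurons are GABAergic cells of the cortex that fire at high rates and inhibit projection neurons at the cell body and the initial part of the axon. Fast firing rests on sodium and potassium channels that open and close quickly, fast transmitter release rests on a dedicated calcium sensor and vesicle protein, thick axons hold neurofilaments, and many of these cells are wrapped in a perineuronal net, a mesh of matrix proteins and sugars. The genes examined were 10 that encode such proteins: Pvalb, Syt2, Hapln4, Scn4b, Vamp1, Nefm, Nefh, Kcns2, Kcnc1 and Kcnab3, out of 54532 genes in the count table and 16745 tested. The list was chosen from genes tied to these cells with the differences between the groups of these libraries already known, so the fold changes of the 10 genes below describe the libraries and are no test.

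RNA was sequenced from the medial prefrontal cortex (mPFC) of adult male C57BL/6 mice, in 4 libraries of the retrieval group and 4 of the non-retrieval group. Each library held a pool of 2 to 3 mice, with tissue taken 1 h after a test of conditioned place preference (CPP), in which an animal seeks out the compartment it has learned to link with a drug, here methamphetamine. The series' design text gives both groups the same strain, sex and time and names no genetic change. What was done with the non-retrieval animals is not described there, nor is the drug dose. Total counts ran from 25013503 to 29547978 per library, and each of the 10 genes had between 830 and 7771 reads in every library.

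All 10 genes passed the filter on low counts and all had a lower mean in retrieval, by 4.93% for Kcnc1 to 27.7% for Scn4b. The median log2 fold change (retrieval over non-retrieval) was -0.33, against -0.009 over all tested genes. In the fit over all genes, 8 of the 10 were called lower at an adjusted p under 0.05 (quasi-likelihood test of edgeR with p adjusted after Benjamini and Hochberg); Nefh and Kcnc1 were not. Of all tested genes 0.902% were called lower. In 6 of the 10, Syt2, Hapln4, Vamp1, Nefm, Kcns2 and Kcnab3, all 4 retrieval libraries lay below all 4 non-retrieval libraries, as they did for 4.53% of tested genes. Nothing is read from these counts, because the list was chosen on the same contrast. The number called lower fell to 2 when non-retrieval replicate 3 or 4 was left out. It was 4 when retrieval replicate 4 was left out, and 5 when either retrieval replicate 3 or non-retrieval replicate 1 was.

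**Figure D1:**
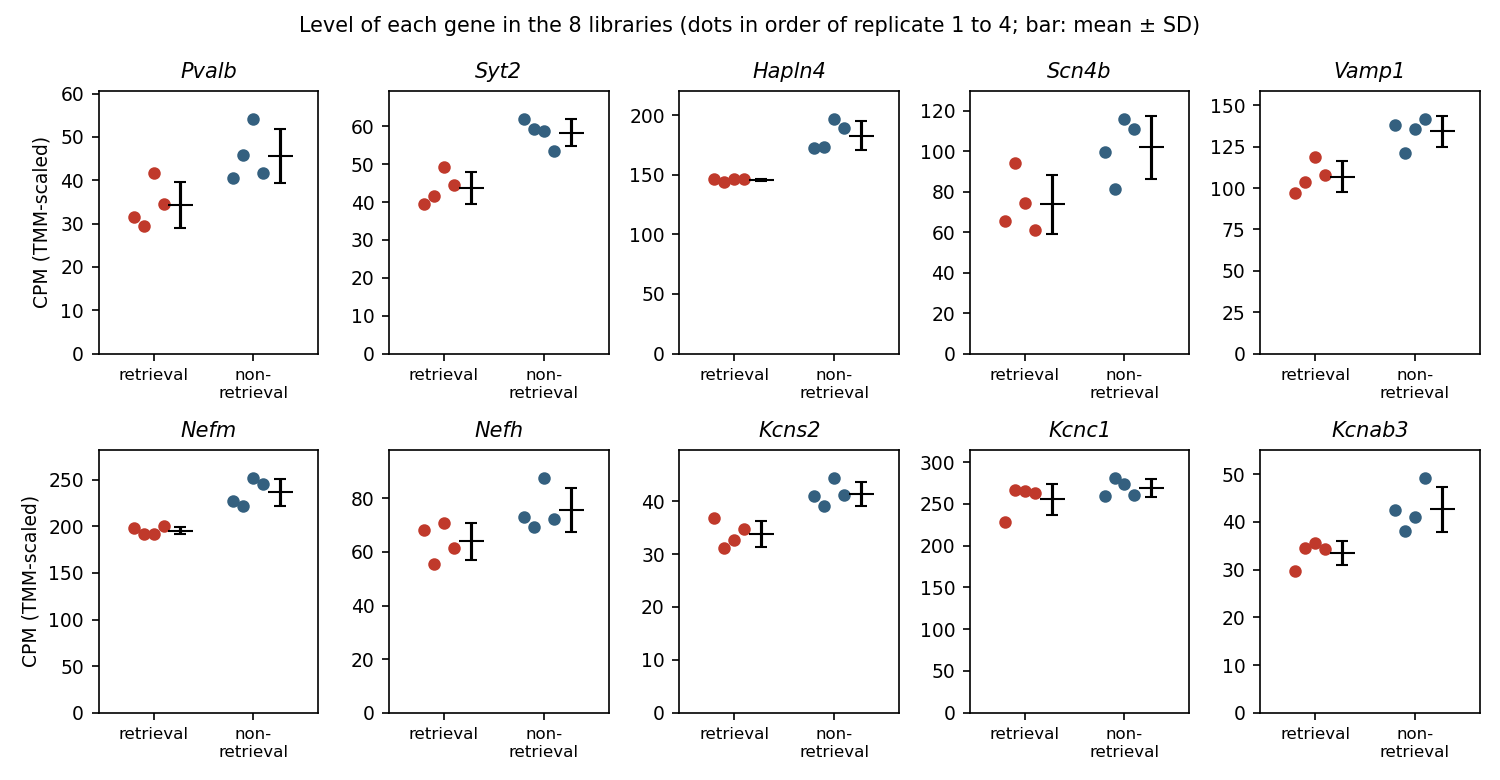
CPM, the reads of a gene relative to the size of its library after TMM scaling, of the 10 genes, with 1 dot per library in order of replicate number and the mean ± SD of each group (n = 4) beside the dots. Retrieval dots lie wholly below non-retrieval dots for Syt2, Hapln4, Vamp1, Nefm, Kcns2 and Kcnab3, and the groups overlap for Pvalb, Scn4b, Nefh and Kcnc1.

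Start regions were read for the 5 genes with an entry in the RefSeq promoter table (build GRCm38.p6), Pvalb, Syt2, Scn4b, Vamp1 and Kcnc1, each from 250 bases before to 50 bases after the start. Pvalb and Syt2 are shown because they mark the cell type and its terminal, and because each has 2 listed starts. The search covered sites of the EGR and AP-1 factors, which neurons make after activity (GCGNGGGCG and TGANTCA), the cyclic AMP response element (TGACGTCA) and the site of the estrogen-related receptors, nuclear receptors linked to metabolic genes of these cells (TNAAGGTCA), on both strands. Capitals mark the matches.

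Syt2 at chr1:134646362-134646661, plus strand: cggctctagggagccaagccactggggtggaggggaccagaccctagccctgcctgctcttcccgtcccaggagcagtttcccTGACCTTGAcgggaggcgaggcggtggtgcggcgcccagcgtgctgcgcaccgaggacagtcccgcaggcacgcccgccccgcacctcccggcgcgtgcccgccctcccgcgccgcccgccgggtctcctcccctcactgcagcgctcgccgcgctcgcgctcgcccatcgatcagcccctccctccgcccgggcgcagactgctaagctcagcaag

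Syt2 at chr1:134709050-134709349, plus strand: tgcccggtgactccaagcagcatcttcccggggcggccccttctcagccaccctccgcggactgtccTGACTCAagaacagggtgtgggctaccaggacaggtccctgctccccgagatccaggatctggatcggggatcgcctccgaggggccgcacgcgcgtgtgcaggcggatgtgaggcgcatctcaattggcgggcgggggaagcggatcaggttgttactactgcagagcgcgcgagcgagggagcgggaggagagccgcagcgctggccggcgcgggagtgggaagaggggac

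Pvalb at chr15:78206351-78206650, minus strand: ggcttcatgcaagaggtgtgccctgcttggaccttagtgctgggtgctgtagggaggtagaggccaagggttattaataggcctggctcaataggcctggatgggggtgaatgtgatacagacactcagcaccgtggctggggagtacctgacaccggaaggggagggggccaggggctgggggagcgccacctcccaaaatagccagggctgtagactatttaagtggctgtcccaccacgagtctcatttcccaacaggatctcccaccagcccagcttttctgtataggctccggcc

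The upstream Syt2 window held 1 match to the estrogen-related receptor site, read on the minus strand and beginning 167 bases before the start, as did 1.28% of 32851 promoters of that length. The other Syt2 start lies 62623 bases into the gene, and its window held 1 AP-1 match, beginning 183 bases before the start, a motif found in 7.81% of promoters. Neither Pvalb window nor those of Scn4b, Vamp1 and Kcnc1 held any of these letters. EGR sites were in 5.55% and cyclic AMP response elements in 1.79% of all promoters. The Pvalb window at the gene's own start held 5 CpG and its other window, not shown, 25. The upstream Syt2 window held 34 and the other Syt2 window 28, against a median of 7 over all promoters. The counts are per gene, so starts of 1 gene were not told apart.

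Pvalb encodes parvalbumin, the EF-hand protein that buffers calcium in these cells and gives them their name. It stood at 31.5, 29.5, 41.6 and 34.5 CPM in the retrieval libraries, against 40.6, 45.8, 54.2 and 41.6 CPM in the non-retrieval libraries. Retrieval replicate 3 reached the level of the lower non-retrieval libraries, so the groups overlapped. Its mean was 34.3 ± 5.28 CPM in retrieval and 45.6 ± 6.18 CPM in non-retrieval (SD, n = 4 each), a log2 fold change of -0.41 (SE 0.11). The value was -0.51 without retrieval replicate 3 and -0.32 without non-retrieval replicate 3. In bulk tissue, fewer cells of a type and less RNA per cell cannot be told apart.

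Syt2 and Vamp1 act at the release site. Syt2 encodes synaptotagmin 2, the fast calcium sensor of many inhibitory terminals. It had 39.4, 41.7, 49.2 and 44.4 CPM in retrieval, against 62.0, 59.2, 58.7 and 53.5 CPM in non-retrieval, with a log2 fold change of -0.42 (SE 0.08). Vamp1 encodes synaptobrevin 1, a SNARE protein of synaptic vesicles. It had 97.1, 104, 119 and 108 CPM in retrieval, against 138, 121, 136 and 142 CPM in non-retrieval, with a log2 fold change of -0.33 (SE 0.07). The groups did not overlap for either gene, although for Vamp1 the highest retrieval library, at 119 CPM, lay next to the lowest non-retrieval library, at 121 CPM.

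Nefm and Nefh encode the medium and heavy neurofilament subunits, which set the calibre of large axons. Nefm had 198, 192, 192 and 200 CPM in retrieval, against 227, 222, 252 and 246 CPM in non-retrieval, with a log2 fold change of -0.28 (SE 0.06). The retrieval libraries spanned a narrow range, with a coefficient of variation of 2.15% against 6.20% in non-retrieval. Nefh had 68.1, 55.4, 70.7 and 61.5 CPM in retrieval, against 73.2, 69.3, 87.6 and 72.2 CPM in non-retrieval. Its log2 fold change of -0.24 (SE 0.09) was not called, its groups overlapped, and it was -0.16 without non-retrieval replicate 3. Nefh was called lower without the filter on low counts and by limma-voom, and 9 of the 10 genes were called lower in each of these.

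Hapln4 encodes a link protein that binds proteoglycans to hyaluronan in the nets around these cells. It had 146, 144, 146 and 146 CPM in retrieval, against 172, 173, 197 and 189 CPM in non-retrieval, with a log2 fold change of -0.33 (SE 0.06). The retrieval libraries differed from each other by a coefficient of variation of 0.593%, against 6.78% in non-retrieval. At 3811 to 4325 reads per retrieval library, 0.593% is below the spread expected from counting reads alone, so nothing is read from it.

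The channel genes were the least alike. Scn4b encodes an auxiliary sodium channel subunit that blocks the open pore and aids rapid refiring. It had 65.3, 94.1, 74.3 and 60.9 CPM in retrieval, against 99.3, 81.2, 116 and 111 CPM in non-retrieval, with a log2 fold change of -0.47 (SE 0.12). Retrieval replicate 2 lay above the lowest non-retrieval library, and without it the value was -0.61. Scn4b is also known from striatal projection neurons, and the same library was the highest of the 8 in the mean of 17 tested striatal markers, 0.80 above the non-retrieval mean on the log2 scale. Retrieval replicates 1, 3 and 4 stood at -0.03 to 0.07 by that measure and the non-retrieval libraries at -0.12 to 0.10. The summed level of the striatal list was 533 to 764 CPM in retrieval and 544 to 586 CPM in non-retrieval, and its part in the Scn4b value was not tested.

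Kcns2 encodes an electrically silent potassium channel subunit that modifies partner channels. It had 36.9, 31.2, 32.6 and 34.7 CPM in retrieval, against 41.0, 39.0, 44.4 and 41.2 CPM in non-retrieval, with a log2 fold change of -0.29 (SE 0.07). Kcnab3, a cytosolic beta subunit of Shaker-type potassium channels, had 29.7, 34.5, 35.5 and 34.3 CPM in retrieval, against 42.4, 38.0, 41.0 and 49.2 CPM in non-retrieval, with a log2 fold change of -0.35 (SE 0.09). Both had groups that did not overlap. Kcnc1 encodes a Shaw-type channel of the kind that ends each spike quickly. It had 228, 266, 265 and 263 CPM in retrieval, against 259, 281, 274 and 261 CPM in non-retrieval. Its log2 fold change of -0.07 (SE 0.06) was not called, and retrieval replicate 1 alone lay below all non-retrieval libraries; without that library the value was -0.01. Kcnc1 was called lower with the offset for length and GC content (-0.17).

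Divided by the length of the gene model, the levels over the 8 libraries ran from 41.9 CPM per kb for Hapln4, 38.3 for Pvalb, 37.4 for Nefm and 27.7 for Kcnc1, through 17.6 for Scn4b, 17.5 for Nefh, 13.3 for Kcnab3 and 11.9 for Vamp1, to 6.73 for Kcns2 and 6.68 CPM per kb for Syt2. Some neighbours in that order did not separate. Pvalb was above Nefm in 3 of 8 libraries, Scn4b above Nefh in 4, Kcns2 above Syt2 in 5, and Hapln4 above Pvalb in 6. For the other neighbours the upper gene was above the lower one in 8 of 8. Pvalb averaged 32.9 ± 5.08 CPM per kb in retrieval, beside 33.8 ± 0.728 CPM per kb for Nefm. In non-retrieval Pvalb averaged 43.8 ± 5.94 CPM per kb, beside 41.0 ± 2.54 CPM per kb for Nefm (SD, n = 4 in each group).

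Of the 10 gene models, which match those of GENCODE M21 in start and end, 3 overlap another gene with more than 26 reads over the 8 libraries, on the opposite strand. Ppp1r12b overlaps Syt2 by 7936 bases, Tapbpl overlaps Vamp1 by 7928 bases and Nefl overlaps Nefm by 5233 bases. These are spans from gene start to gene end, introns included, and the shared exon sequence was not measured. No label states whether the counting used strand, so reads from any shared exon sequence could not be told apart. Over the 8 libraries Ppp1r12b had 37851 reads against 11325 for Syt2, and Tapbpl 2325 against 26844 for Vamp1. Ppp1r12b had a log2 fold change of 0.09 (SE 0.06) and Tapbpl of -0.05 (SE 0.09), with edgeR adjusted p of 0.404 and 0.806. Nefl, with 68983 reads over the 8 libraries against 48218 for Nefm, had a log2 fold change of -0.18 (SE 0.06; edgeR adjusted p = 0.120), and its retrieval libraries all lay below its non-retrieval libraries.

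The 10 genes were then set beside 18 companion lists, which covered related channel, release, filament, matrix and interneuron genes as well as markers of other cells and immediate early genes. The lists leave out the 10 genes, which were picked with their lower values known, so their counts do not show how far lower values extend within a gene family. Of 278 tested genes in the lists, none was called lower in retrieval and 25 were called higher in edgeR. Over all tested genes 4.57% were called, 0.902% lower and 3.67% higher. Of all calls 80.3% were higher, or 68.8% with an offset for gene length and 59.6% with one for length and GC content. At an unadjusted p under 0.05, 16 of the 278 were lower and 62 higher, while of all tested genes 7.27% were lower and 11.2% higher. DESeq2 called 1 lower and limma-voom 6. In edgeR fits that left out a library, 6 were called lower without retrieval replicate 1 and 1 each without retrieval replicate 3 or non-retrieval replicate 1. The number called higher was 44 without retrieval replicate 1 and 15 without non-retrieval replicate 3. All retrieval libraries lay below all non-retrieval libraries for 5 of the 278, or 1.80%, beside 4.53% of all tested genes.

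Among 21 fast potassium channel genes none was called (median log2 fold change -0.05), with 16 of the 21 below 0. At an unadjusted edgeR p under 0.05, 2 of them were higher and 1, Kcng4, was lower (-0.37, SE 0.15; edgeR adjusted p = 0.199). Without retrieval replicate 3 or with the replicate block, Kcng4 was called lower (edgeR adjusted p = 0.0398 and 0.0356). Kcnc2, which encodes a relative of the Kcnc1 channel, had a log2 fold change of -0.08 (SE 0.06), and Kcna1, a Shaker-type channel of axons, one of -0.02 (SE 0.08). Of 14 axonal sodium channel genes and partners, Nav1, a microtubule-binding neuron navigator and not a channel despite its symbol, rose (0.52, SE 0.08; edgeR adjusted p = 0.000832). Scn1a, the main sodium channel of fast-spiking cells, averaged 139 ± 15.9 CPM in retrieval and 163 ± 11.1 CPM in non-retrieval (SD, n = 4 each; log2 fold change -0.23, SE 0.08; edgeR adjusted p = 0.112), and it was called lower without retrieval replicate 1 (-0.30, edgeR adjusted p = 0.00996), without the filter on low counts, by limma-voom, with either offset and with the covariate of Gad1, Gad2 and Slc32a1 (adjusted p from 0.00129 to 0.0295). Scn8a, the channel of the axon initial segment, stood at 0.03 (SE 0.06).

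None of 22 fast release genes was called (median -0.03). Their summed level was 12799 to 13188 CPM in retrieval and 13491 to 14067 CPM in non-retrieval, without overlap. Cplx1 encodes complexin 1, which clamps and speeds vesicle fusion. It had 589, 670, 649 and 643 CPM in retrieval, against 689, 738, 772 and 775 CPM in non-retrieval. Its groups did not overlap, and its log2 fold change of -0.22 (SE 0.06) came to an edgeR adjusted p of 0.0513, or 0.0360 without non-retrieval replicate 1 (-0.25). Of 13 neurofilament and axon transport genes, Nes (0.69) and Vim (0.35), intermediate filament genes of progenitor, glial and vessel cells, rose with edgeR adjusted p of 0.0175 and 0.0284. The calls of Nes and Vim ended in 4 and in 5 of the 8 fits that left out a library, at edgeR adjusted p up to 0.0952. Nefl, the light neurofilament subunit, averaged 290 ± 17.4 CPM in retrieval and 329 ± 17.0 CPM in non-retrieval (SD, n = 4 each; log2 fold change -0.18, SE 0.06; edgeR adjusted p = 0.120), and its groups did not overlap.

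Of 16 perineuronal net genes, Tnc, which encodes the matrix protein tenascin C (1.16, SE 0.23; edgeR adjusted p = 0.00921), and Nptx2, a pentraxin that excitatory neurons release onto these cells (0.49, SE 0.12; edgeR adjusted p = 0.0224), rose and none was called lower, with 3 of the 16 below 0 (median 0.16). Nptx2 lost its call when retrieval replicate 4 or non-retrieval replicate 3 was left out (edgeR adjusted p from 0.0758 to 0.0810). Acan, the core proteoglycan of the nets, stood at 3.88 ± 0.666 CPM in retrieval and 3.55 ± 0.713 CPM in non-retrieval (SD, n = 4 each), a difference within the spread. None of 16 tested calcium-binding protein genes was called (median -0.05). Their summed level was 10323 to 10966 CPM in retrieval and 11055 to 11516 CPM in non-retrieval, without overlap.

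None of 25 tested genes of parvalbumin cell identity and maturation was called (median -0.04), with 1 higher and 3 lower at an unadjusted p under 0.05, a level that 18.5% of all tested genes reached. Ppargc1a, a coactivator that parvalbumin expression depends on in mice, had a log2 fold change of -0.16 (SE 0.08), Cox6a2, a mitochondrial subunit enriched in these cells, -0.04 (SE 0.15), and Erbb4, a neuregulin receptor, 0.09 (SE 0.10). None of 16 GABAergic core genes was called (median 0.04). Gad1 and Gad2, which make GABA, had log2 fold changes of -0.15 (SE 0.06; edgeR adjusted p = 0.193) and -0.05 (SE 0.06; edgeR adjusted p = 0.727). For Gad1 the retrieval libraries, at 312, 280, 300 and 315 CPM, all lay below the non-retrieval libraries, at 340, 324, 345 and 327 CPM. It was called lower with the offset for length and GC content (edgeR adjusted p = 0.0233). Slc32a1, which loads GABA into vesicles, stood at 0.06 (SE 0.10), and Lhx6, a transcription factor of parvalbumin and somatostatin cells, at -0.01 (SE 0.08). Of 22 markers of other interneuron classes, Nos1, the neuronal nitric oxide synthase, rose (0.42; edgeR adjusted p = 0.0352), a call that ended in 6 of the 8 fits that left out a library (edgeR adjusted p up to 0.141). The peptide genes Sst and Vip both stood at 0.06 (SE 0.11 and 0.10).

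**Figure D2:**
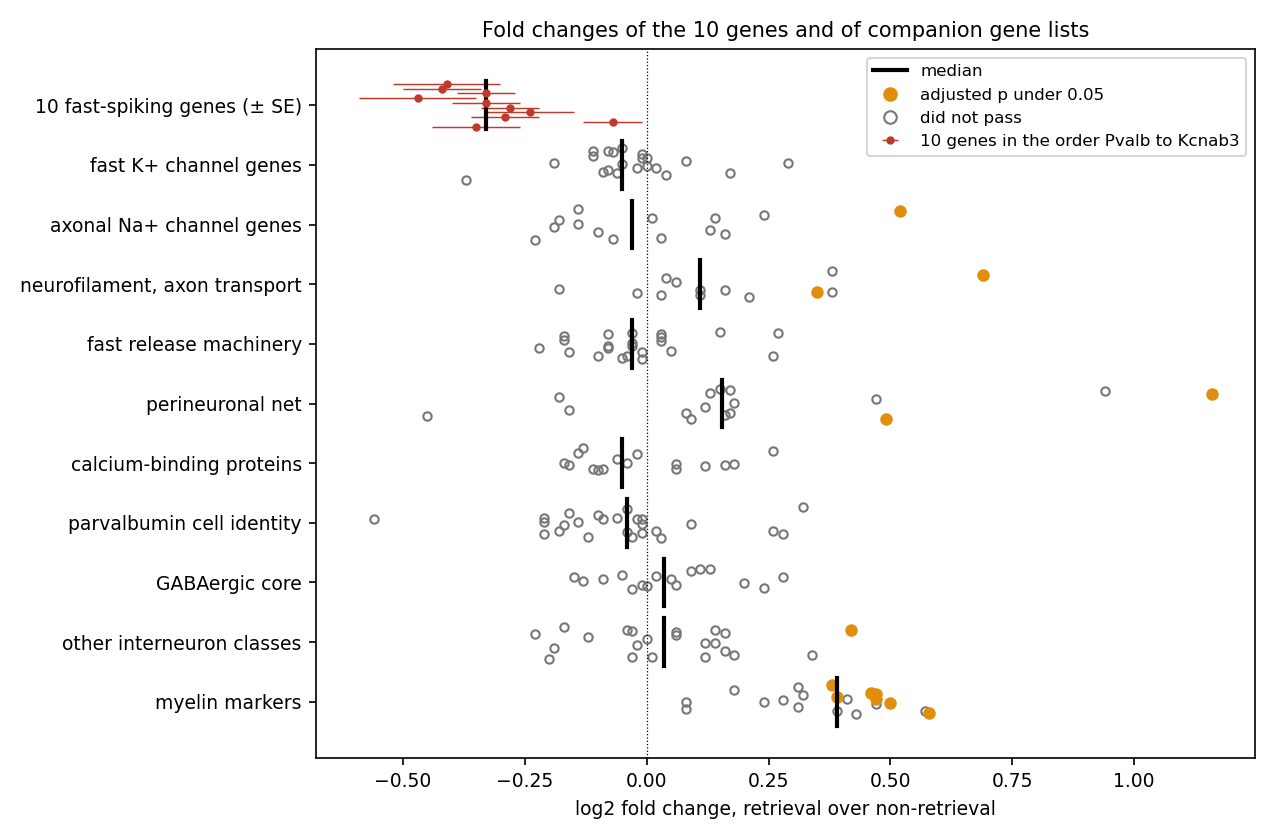
Log2 fold change of the 10 genes with their SE (red) and of the tested genes of 10 companion lists, retrieval over non-retrieval; filled orange dots passed an adjusted p of 0.05, open dots did not, and black bars are medians. The 10 genes have a median of -0.33, the lists of channel, release, calcium-binding, identity and interneuron genes have medians from -0.05 to 0.04, and the myelin list has one of 0.39.

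The 10 genes were also set against the GABAergic cells as a whole, as CPM per 100 CPM of Gad1, Gad2 and Slc32a1 together. For genes that other cells also make, such as Nefm, Nefh and Scn4b, this ratio gives no level per GABAergic cell. That sum was 560 to 597 CPM in retrieval and 591 to 613 CPM in non-retrieval. On this scale Syt2 averaged 7.62 ± 0.701 in retrieval and 9.63 ± 0.468 in non-retrieval, and Pvalb 5.97 ± 0.892 in retrieval and 7.51 ± 0.946 in non-retrieval (SD, n = 4 each). Groups did not overlap for Syt2, Hapln4 and Nefm, nor for Kcnab3, whose highest retrieval and lowest non-retrieval library both stood at 6.21. Vamp1 and Kcns2, whose groups did not overlap in CPM, overlapped on this scale. Kcnc1 averaged 44.6 ± 3.16 in retrieval and 44.4 ± 1.40 in non-retrieval (SD, n = 4 each).

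Markers of other cell types moved with the groups in part. None of 20 markers of oligodendrocytes and myelin had a log2 fold change below 0, and 7 rose, among them Ermn (0.47), Mal (0.46) and Mobp (0.58), with 15 at an unadjusted p under 0.05. Their summed level was 4510 to 6493 CPM in retrieval and 3751 to 4395 CPM in non-retrieval. Retrieval replicates 2 and 4 lay 0.62 and 0.51 above the non-retrieval mean on the log2 scale, retrieval replicates 1 and 3 lay 0.15 and 0.13 above it, and non-retrieval libraries -0.09 to 0.16 from it. The mean of the 10 genes lay -0.34 and -0.33 from the non-retrieval mean in retrieval replicates 2 and 4, and -0.38 and -0.23 in retrieval replicates 1 and 3. The part of the myelin signal in these values was not tested. With the myelin mean as a covariate, the median log2 fold change of the 10 genes was -0.28, that of Nefh was -0.05, that of Kcnc1 was -0.17, and 0 of the 10 were called lower, while 245 genes were called in all.

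Other lists changed in few members. Of the 15 deep-layer projection neuron markers Bcl6 rose (0.31), of the 12 markers of layers 2 to 4 Cdh13 (0.32), and of the 10 thalamic markers Plekhg1 (0.47), with edgeR adjusted p of 0.0299, 0.0129 and 0.0316. These calls ended in 6, 1 and 5 of the 8 fits that left out a library, at edgeR adjusted p up to 0.111. The summed level of the deep-layer markers, whose cells also hold neurofilaments, was 791 to 895 CPM in retrieval and 773 to 902 CPM in non-retrieval. No striatal, astrocyte, microglia, or endothelial and mural marker was called in edgeR, with 5 of 17, 2 of 14, 1 of 12 and 2 of 12 of them at an unadjusted p under 0.05, beside 18.5% of all tested genes. Of 10 immediate early genes, which neurons transcribe soon after activity, 9 rose. Fos averaged 60.8 ± 4.28 CPM in retrieval and 13.1 ± 4.37 CPM in non-retrieval (SD, n = 4 each; log2 fold change 2.21; edgeR adjusted p = 2.24e-07), and the smallest p were those of Fosb, Egr4, Egr1 and Egr2.

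**Figure D3:**
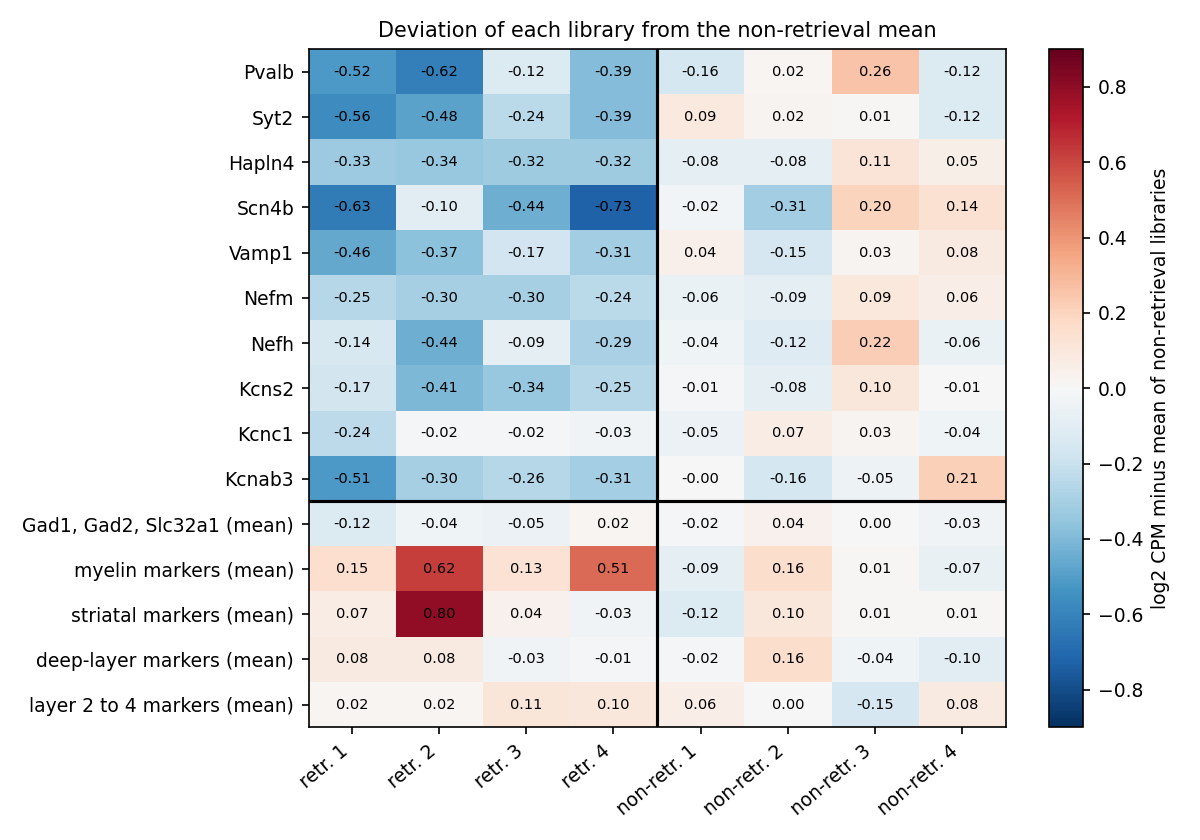
Log2 CPM of each library minus the mean of the non-retrieval libraries, for the 10 genes (upper rows) and for the means of marker lists (lower rows), with retrieval libraries on the left. All 40 retrieval values of the 10 genes are below 0, from -0.73 to -0.02, and myelin and striatal markers are high in retrieval replicate 2.

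Within the groups the genes did not move as 1 block. Non-retrieval replicate 3 was the highest of its group for 6 of the 10 genes and non-retrieval replicate 2 the lowest for 6. In retrieval, replicate 3 was the highest for 5, and replicates 1 and 2 were each the lowest for 4. With group means removed, the Pearson r of each gene with the mean of the other 9, over 8 libraries that share depth and dissection, was highest for Hapln4 (0.72), Vamp1 (0.68) and Pvalb (0.63), and lowest for Kcns2 (0.11) and Kcnc1 (0.09). By the same measure, the genes most like the mean of the 10 among 13238 protein-coding genes were Mob2 (0.98), Arhgef4 (0.97), Plekhd1 (0.97), Lmo2 (0.96), Slc26a4 (0.95), Kcmf1 (0.94), Upf3a (0.94) and Otub2 (0.94), each named as the top of many genes over 8 libraries. None of these 8 was called between the groups in edgeR (adjusted p 0.107 to 0.959), with fold changes of -0.31 to 0.20 on the log2 scale.

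**Figure D4:**
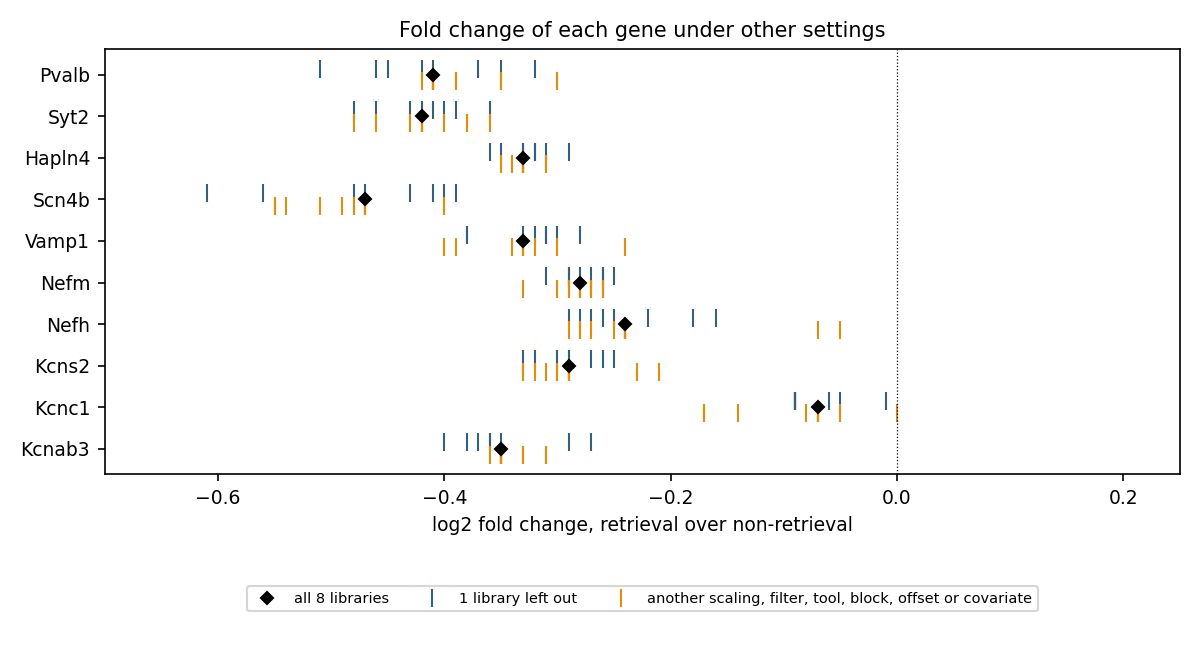
Log2 fold change of each gene, retrieval over non-retrieval, in the fit of all 8 libraries (diamonds), with 1 library left out (blue ticks) and with other scaling, filters, tools, the replicate block, offsets or covariates (orange ticks). All values lie below 0 except that of Kcnc1 with the covariate of Gad1, Gad2 and Slc32a1, at 0.00.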

How the data were processed

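The authors deposited raw read counts per gene, not normalized, made with HISAT2 2.0.5 and featureCounts 1.5.0-p3 on GRCm38, per the submitters' processing notes. RNeasy Micro and NEBNext Ultra RNA kits were used, per the labels' protocols. Annotation release and strand setting were not stated. The series' design text calls each pool 1 biological sample, so the spread between libraries is one between pools. No 2 libraries of the same group agreed within sampling noise.

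After filterByExpr in edgeR 4.0.16 (R 4.3.3) 16745 genes remained. Libraries were scaled with TMM factors, and retrieval was compared with non-retrieval by edgeR's two-sided quasi-likelihood F test and p-values were adjusted (Benjamini-Hochberg) across every tested gene. CPM use the same factors, log2 CPM a prior count of 2. The procedure was tested on simulated data. Alternatives used DESeq2 1.42.0, limma 3.58.1 voom with quality weights per library (called limma-voom throughout), other scalings, filters and thresholds. Further ones used the replicate block, offsets, covariates and fits that left out a library.

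The 10 genes and the companion lists were chosen with earlier results of these data known. The rule for named genes took the 10 genes, up to 4 passing genes per list, 18 others fixed by name, and the 8 genes of most similar pattern. Some of these are not reported here. Any other gene was named after its values were seen.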

Additional observations from a re-analysis of the deposited data

Results flagged for a closer look

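In a group of 4, a library was marked when its gap to the next, as a share of the group's range, exceeded Dixon's critical value. Chance marks about 1 group in 20, and 6 of 164 groups were marked. Among the 10 genes this was Kcnc1 in retrieval replicate 1, at 228 CPM against 263 to 266 CPM in the other retrieval libraries. Its relative Kcnc2 stood at 139 CPM in non-retrieval replicate 4, against 158 to 159 CPM in the rest of that group. Nefl stood at 264 CPM in retrieval replicate 2 (others 296 to 301 CPM). The perineuronal net list summed to 1727 CPM in retrieval replicate 1 (others 1928 to 1942 CPM). Outside these pathways, Ermn stood at 41.3 CPM in retrieval replicate 3 (others 48.4 to 49.6 CPM) and Egr2 at 41.2 CPM in retrieval replicate 4 (others 30.6 to 31.9 CPM).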

How the results depend on the processing

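All 10 log2 fold changes were below 0 under the 22 settings, except Kcnc1 (0.00) with the covariate of Gad1, Gad2 and Slc32a1, and no call reversed. Called at an adjusted p under 0.05 with all 8 libraries were 766 genes, 151 of them lower, 8 of the 10 genes, and 25 higher and 0 lower companion genes. With 1 library left out, these counts ran from 330 to 1360, from 45 to 328, from 2 to 8, from 15 to 44 and from 0 to 6. The myelin covariate left 245 genes, 27 lower, 0 of the 10 and 11 higher companion genes. That covariate with retrieval replicate 2 left out, added after seeing the data, left 131, 11, 0 and 9. An adjusted p under 0.01 left 238, 23, 2 and 13, and one under 0.10 gave 1173 and 284, with 1 companion gene lower. Limma-voom, with its library quality weights, called 1619 genes, 509 lower, and companion genes 48 higher and 6 lower. Without a filter on low counts, 241 genes were lower, and companion genes 46 higher and 4 lower. DESeq2 called 230 genes lower, with 7 of the 10 genes, Scn4b not included, and 1 companion gene lower. Library totals alone made 1 companion gene lower, the length offset 2, and the covariate of Gad1, Gad2 and Slc32a1 4. With the covariate of Gad1, Gad2 and Slc32a1, 7 of the 10 genes were called lower, Pvalb not included. Over the 22 settings Pvalb, Scn4b and Kcns2 each lost their call in 9, and Syt2 and Hapln4 in 2 each. Nefh gained a call in 3 settings and Kcnc1 in 1. An offset for length and GC content (GC known for 99.9% of tested genes), added after seeing the data, called 1296 genes, 523 lower, so that 59.6% of calls were higher against 80.3% with no offset, with companion genes 39 higher and 18 lower; the length offset alone gave 68.8% higher and limma-voom 68.6%. The cause of these shifts was not tested.

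With the replicate block 1791 genes were called, 517 lower, with companion genes 58 higher and 11 lower. Scn1a and Gad1 were among these 11, and 9 of the 10 genes were called lower, Nefh included. The labels do not tie equal numbers together. Same-number libraries correlated by 0.03 to 0.22 in their deviations from the group means, not all above the level taken as pairing, although 8 of 8 libraries correlated best with their own number, a hint from the data and not the design. With 4 libraries a group, calls near the threshold depended on single libraries.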

Other observations

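Some companion genes that did not pass in the fit of all 8 libraries were lower under other settings. Snap25, a SNARE protein of the nerve terminal, averaged 2427 ± 107 CPM in retrieval and 2737 ± 177 CPM in non-retrieval (SD, n = 4 each; log2 fold change -0.17; edgeR adjusted p = 0.135), and limma-voom called it lower (adjusted p = 0.0269). Cplx1 was called lower by DESeq2 (adjusted p = 0.0137) and limma-voom (adjusted p = 0.0125). Snap25 was named after its values were seen. In the edgeR fit with the myelin covariate no companion gene was called lower.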
